A study of Homo sapiens with 16 samples.

Results

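CMC-treated HEK293T RNA was sequenced with and without Terminator exonuclease, and the 4 treated libraries are compared here at the RNA positions where all 4 were reported. The members are 20661 positions, taken from 4 deposited tables by the rule that a position is listed in every table with the same surrounding sequence. The tables held 217511 and 234168 positions for CMC+ with Terminator (replicates 1 and 2) and 157330 and 219316 for CMC+. Of the members, 8480 were uridines (U), and they covered 16498 distinct sequences in 1328 genes, since repeated genes such as those of ribosomal RNA (rRNA) give several positions with one sequence. HEK293T is a human embryonic kidney cell line, wild type in all groups per the labels. Polyadenylated RNA was selected on oligo d(T) beads, broken to about 250 nt at 94 °C for 5 min, and treated with CMC in BEU buffer and then with sodium carbonate, or carried through without CMC. The groups were CMC+ with Terminator (2 libraries), CMC+ (2 libraries) and CMC- (2 libraries), and the labels list RA3 and DA3 for all 3 groups and AP5 and RE for the Terminator group alone. The difference between the first 2 groups is therefore that between the whole treatments, and Terminator cannot be told apart from AP5 and RE.

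Pseudouridine is the isomer of uridine made by pseudouridine synthases. Some of these enzymes act alone, while the dyskerin complex is guided to its sites in rRNA and spliceosomal RNA by H/ACA small nucleolar RNAs. CMC is a carbodiimide whose adduct on pseudouridine survives alkali and blocks reverse transcriptase, so complementary DNA ends beside the modified base. Terminator digests RNA from a 5′ monophosphate, and spares RNA whose 5′ end is capped, hydroxylated or otherwise closed. The labels do not say at which step it was used.

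At each position the stop reads are the reads that end there, the covering reads are all reads over it, and the stop percent is their ratio in percent. Coverage is given in CPM, the covering reads scaled by the library total to counts per 1000000 reads. The library totals were 16327066 and 15794164 reads for CMC+ with Terminator, 14904452 and 17527920 for CMC+, and 19063721 and 15676714 for CMC-. Positions with at least 10 stop reads in at least 2 of the 6 libraries were tested, which left 14470 of the 20661. At those the median depth was 312 and 347 covering reads with Terminator, 231 and 353 in CMC+, and 324 and 358 in CMC-, while the median number of stop reads was 16.8 and 18.8, 11 and 14.6, and 12.0 and 12. Each comparison was fitted with edgeR's quasi-likelihood test over all 6 libraries with the replicate number as a block, and a position was called at a Benjamini-Hochberg adjusted p under 0.05 with at least a 2-fold change. Every adjusted p below comes from these fits, and since the labels do not say that replicates were separate cultures, p-values measure only the spread between these samples. Of the HEK293T markers sought, VIM had 61 common positions, while NES, PAX2, LHX1 and CDH2 had 0, as did all 10 colorectal epithelial markers, so the tables allow little check of the cell line.

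The sequences below are those of the sites on which the stop percent result turns. Each is read 5′ to 3′ along the RNA from the deposited tables (build hg38), with T for U and with the tested base in capitals. Numbers along 18S are those of the mature molecule, and numbers along 28S count from the start of the annotated RefSeq transcript.
18S base 866 (chromosome 21 position 8210496, plus strand): ctaggaataaTggaataggac
18S base 1056 (chromosome 21 position 8210686, plus strand): tcgaagacgaTcagataccgt
28S nucleotide 3681 (chromosome 21 position 8217567, plus strand): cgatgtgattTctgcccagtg
28S nucleotide 4428 (chromosome 21 position 8218314, plus strand): cgctttttgaTccttcgatgt
28S nucleotide 4518 (chromosome 21 position 8218404, plus strand): gagctgggttTagaccgtcgt
RPL11, coding sequence (chromosome 1 position 23693829, plus strand): tcagatccttTggcatccgga
SNRPD2, coding sequence (chromosome 19 position 45688411, minus strand): aagaaactccTgggccgcgtg
RACK1, coding sequence (chromosome 5 position 181241517, minus strand): tggaatacccTgggtgtgtgc
ALDOA, coding sequence, an adenosine (chromosome 16 position 30067548, plus strand): cgaccgcgtgAacccctgcat
Of these, 28S nucleotide 4518 lies in the UNUAG context of the stand-alone synthase PUS7.

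With Terminator added to CMC, the stop percent rose at a small set of positions. It was called higher at 131 of 14470 positions (0.905%) and lower at 0 (0%), where an unadjusted p under 0.05 was reached by 1782 positions with a higher and 9 with a lower value and DESeq2 also called 0 lower. The tables list a position only when its treated stop percent is at least that of CMC-, so a stop percent that fell below CMC- could not be among the members. By the same rule, no Terminator or CMC+ library can lie below the CMC- library of the same number. That order is therefore not a result. Coverage was also called higher at 4 of the 131, against 11.0% of all tested positions, and its median log2 change at the 131 was -0.10, with 0.68 at the 31 in nuclear rRNA and -0.18 at the 73 in mRNA. Over all tested positions the median stop percent was 5.73 and 5.58 with Terminator, 5.10 and 4.46 in CMC+, and 3.83 and 3.47 in CMC-. The fitted log2 change had a median of 0.22 (0.14 in the replicate 1 pair and 0.28 in the replicate 2 pair), and 22.2% of positions had a change below 0. Most positions thus share a small upward shift, and called positions lie above it by the 2-fold rule itself. When each change was measured from that median, 10 U and 9 other bases were called, against 74 and 57 without that centring.

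The 131 positions were 74 U of 5682 tested (1.30%), 32 A of 2797, 13 C of 2841 and 12 G of 3150. In nuclear rRNA 25 of 1526 U were called (1.64%), with 12 distinct sequences among them, against 6 of 3787 other bases. In messenger RNA (mRNA) 34 of 2736 U were called (1.24%), against 39 of 3463 other bases (1.13%), and in mitochondrial RNA 9 of 672 U and 7 of 855 other bases. The excess of U over other bases was therefore seen among the called positions of nuclear rRNA and little in mRNA, a description with no test of the difference. The number of calls rested on 2 libraries: without Terminator replicate 2, or without CMC+ replicate 2, no U and no other base was called, while leaving out any other single library gave 50 to 87 called U.

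**Figure D1:**
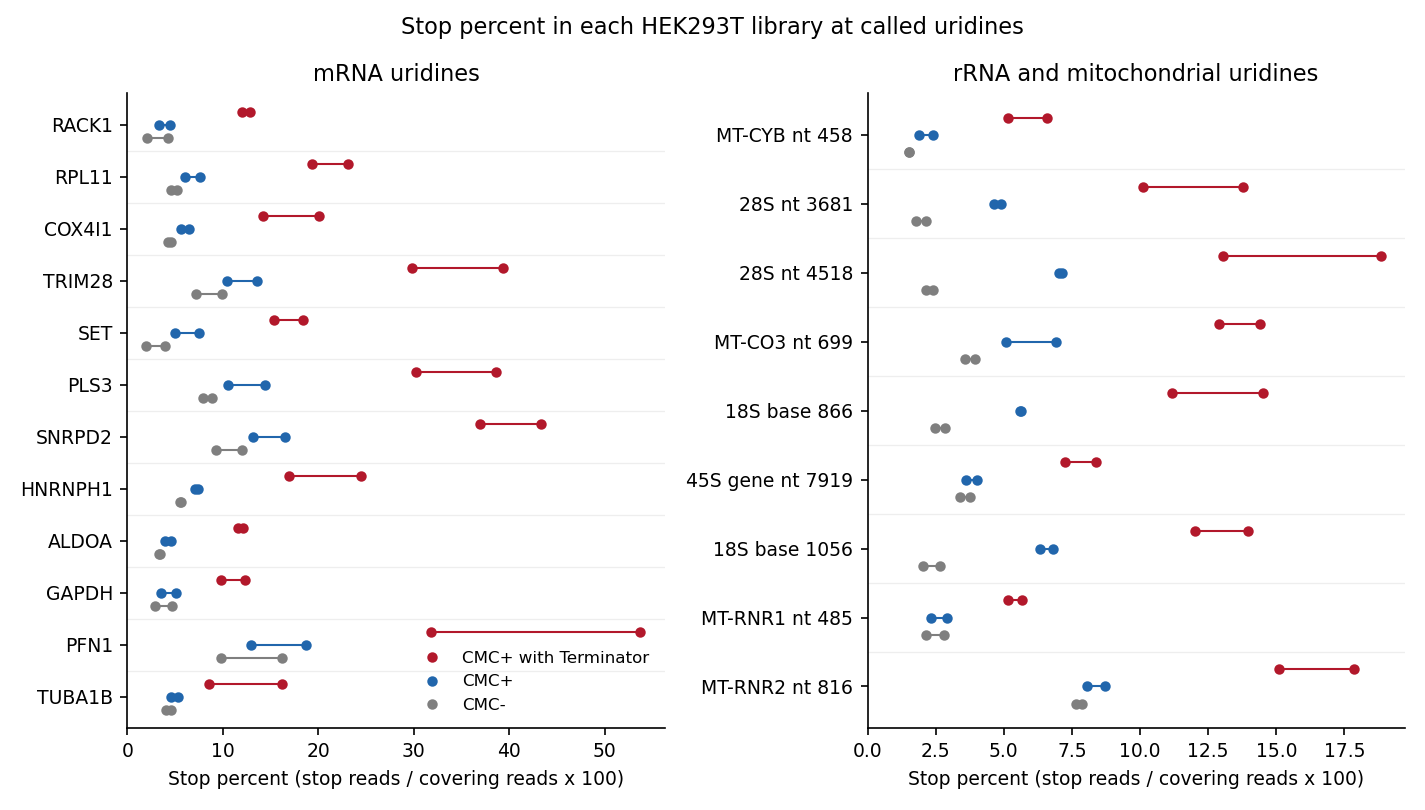
Stop percent (stop reads over covering reads, in percent) in each library at uridines called higher with Terminator, in mRNA (left) and in rRNA and mitochondrial RNA (right). Each dot is 1 library and each line joins the 2 replicates of a group. At every site shown, as at all 131 called positions, both Terminator libraries lie above both CMC+ libraries, but these were chosen as called rises. How many of all tested positions separate in this way is not given here. At the 18S and 28S sites both CMC+ libraries also lie well above CMC-, as in 18S base 866 (11.2 and 14.5 percent with Terminator, 5.61 and 5.59 in CMC+, 2.86 and 2.49 in CMC-). Listing itself kept each CMC+ library no lower than its same-numbered CMC- library.

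In rRNA, the bases 866 and 1056 of 18S, both known pseudouridines made by guided dyskerin, rose in stop percent. Base 866 stopped 11.2% and 14.5% of covering reads with Terminator, 5.61% and 5.59% in CMC+, and 2.86% and 2.49% in CMC-. The Terminator and CMC+ libraries did not overlap, as at all 131 called positions, which were picked as rises. CMC+ and CMC- did not overlap either, though listing already kept each CMC+ library no lower than its same-numbered CMC- library. The change from CMC+ was 1.23 ± 0.13 on the log2 scale (SE, n = 2 libraries each, adjusted p = 0.0085 by edgeR). Base 1056 stopped 12.0% and 14.0% with Terminator, 6.79% and 6.31% in CMC+, and 2.66% and 2.05% in CMC- (log2 change 1.04 ± 0.11, adjusted p = 0.0091). Both bases were each listed at 3 common positions of rRNA genes with the same sequence, so the reads cannot be assigned to a single gene.

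Stop percent also rose at 3 sites of 28S. Nucleotide 3681 stopped 10.1% and 13.8% with Terminator, 4.63% and 4.88% in CMC+, and 2.14% and 1.79% in CMC- (log2 change 1.37 ± 0.13, adjusted p = 0.0068). Nucleotide 4518, in the PUS7 context, stopped 13.0% and 18.8% with Terminator, 7.02% and 7.12% in CMC+, and 2.39% and 2.14% in CMC- (log2 change 1.24 ± 0.15, adjusted p = 0.011). Nucleotide 4428 stopped 11.2% and 12.2% with Terminator, 5.53% and 5.31% in CMC+, and 2.09% and 1.77% in CMC- (log2 change 1.13 ± 0.09, adjusted p = 0.0068). At this last base the Wilson 95% intervals of the Terminator libraries (9.28 to 13.4 and 10.6 to 14.0) lay wholly above those of the CMC+ libraries (3.75 to 7.99 and 3.92 to 7.20). The intervals were also apart at nucleotides 3681 and 4518 and at 18S base 1056, and overlapped at 18S base 866. They cover counting error only.

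Across the 25 called rRNA U the median stop percent was 11.8 with Terminator, 5.43 in CMC+ and 2.26 in CMC-. At 13 of them both CMC+ libraries were already at least 2-fold above both CMC- libraries. The 25 hold only 12 distinct sequences, so gene copies of a site are counted more than once here. The most covered 18S uridine was not called. 18S base 1539 stopped 2.85% and 2.33% with Terminator, 2.48% and 2.18% in CMC+, and 2.05% and 1.98% in CMC- (log2 change 0.16 ± 0.09, adjusted p = 0.97). By RNA, the median log2 change of stop percent was 0.31 for U and 0.15 for other bases in 18S, 0.25 and 0.18 in 28S, and 0.05 and 0.10 in the 45S precursor. The bases of the precursor thus lay below the median of all positions, and relative to it the U and other bases of 5.8S (0.10 and 0.09) did too.

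The mRNA uridines described next are the called U with the largest changes, 1 per gene. A long noncoding RNA, XIST, held the 10 called long noncoding positions and its levels are not reported here.

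RPL11, a protein of the large ribosomal subunit, stopped 23.1% and 19.3% of covering reads with Terminator, 7.59% and 6.05% in CMC+, and 5.21% and 4.55% in CMC- (log2 change 1.66 ± 0.10, adjusted p = 0.0068). Its Wilson intervals with Terminator (16.2 to 32.3 and 13.6 to 26.1) lay above those of CMC+ (4.46 to 12.0 and 3.68 to 9.41). RACK1, a scaffold protein of the small subunit, stopped 12.0% and 12.9% with Terminator, 4.47% and 3.30% in CMC+, and 4.28% and 2.09% in CMC- (1.66 ± 0.23, adjusted p = 0.016). The CMC+ and CMC- libraries overlapped at RACK1, and the stop reads behind the percents were few, with 24.7 and 24.3 in the Terminator libraries and 8.77 and 11 in CMC+.

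SNRPD2, a core Sm protein of the spliceosomal ribonucleoproteins, was the other named mRNA U whose Wilson intervals were apart. It stopped 43.4% and 36.9% with Terminator, 16.5% and 13.1% in CMC+, and 12.0% and 9.31% in CMC- (1.49 ± 0.11, adjusted p = 0.0068). HNRNPH1, a splicing regulator that binds G-rich RNA, stopped 24.4% and 16.9% with Terminator and 7.42% and 7.06% in CMC+ (1.45 ± 0.21, adjusted p = 0.042). In TRIM28, a corepressor of transcription, and in SET, a histone chaperone, the log2 changes were 1.51 ± 0.19 in each case. TRIM28 stopped 29.8% and 39.4% with Terminator and 10.5% and 13.6% in CMC+, and lies at a run of U.

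Among the metabolic genes, the glycolytic enzyme ALDOA stopped 12.1% and 11.5% with Terminator, 3.89% and 4.59% in CMC+, and 3.26% and 3.37% in CMC- (1.45 ± 0.14, adjusted p = 0.011). GAPDH, of the same pathway, stopped 9.78% and 12.3% with Terminator and 5.10% and 3.49% in CMC+ (1.42 ± 0.26, adjusted p = 0.047). Its sequence was held by 2 of the common positions. COX4I1, a subunit of cytochrome c oxidase, stopped 14.2% and 20.1% with Terminator and 6.49% and 5.60% in CMC+, in its 3′ UTR (1.52 ± 0.21, adjusted p = 0.016). These 3 genes had higher values in both Terminator libraries than in either CMC+ library, as did all 131 called positions, which were picked as rises. At all 3 the CMC+ libraries were less than 2-fold above CMC-.

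Of the cytoskeletal genes, PFN1 and TUBA1B had Terminator libraries that lay far apart. PFN1, which binds actin monomers, stopped 31.8% and 53.7% with Terminator and 12.9% and 18.7% in CMC+, at a run of U in its 3′ UTR (1.41 ± 0.16, adjusted p = 0.026). TUBA1B, an alpha tubulin, stopped 8.54% and 16.2% with Terminator and 5.26% and 4.57% in CMC+ (1.40 ± 0.26, adjusted p = 0.049). PLS3, which bundles actin filaments, stopped 30.2% and 38.7% with Terminator and 14.4% and 10.5% in CMC+ (1.504 ± 0.21, adjusted p = 0.016). For each named mRNA U, leaving out Terminator replicate 2 or CMC+ replicate 2 ended the call, as it did for all sites.

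Over the 34 called mRNA U the median stop percent was 15.3 with Terminator, 6.18 in CMC+ and 4.59 in CMC-. None of the 34 had both CMC+ libraries at least 2-fold above both CMC- libraries, where 13 of the 25 called rRNA U had. The 34 are distinct sequences, while the 25 hold 12, so the 2 counts are not alike. Median stop reads in CMC+ were also fewer at the 34, with 12.2 against 32.0. The same count over all tested U was not made, so the contrast is a description of the called positions only. Adenosines and guanosines, which carry no pseudouridine, were called in mRNA with changes as large. The largest was an A of ALDOA, which stopped 8.66% and 11.6% with Terminator, 2.67% and 2.65% in CMC+, and 2.04% and 2.49% in CMC- (1.94 ± 0.17, adjusted p = 0.0068). A G of VDAC1, a channel of the outer mitochondrial membrane, stopped 43.8% and 28.3% with Terminator and 11.3% and 9.94% in CMC+ (1.76 ± 0.18, adjusted p = 0.0084). The other named non-U sites, in HSP90AB1, TUFM and YWHAG, had log2 changes of 1.71, 1.70 and 1.64.

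The mitochondrial sites were fewer. MT-RNR2, the large mitochondrial rRNA, stopped 15.1% and 17.8% with Terminator, 8.73% and 8.05% in CMC+, and 7.88% and 7.66% in CMC- at its nucleotide 816 (1.01 ± 0.10, adjusted p = 0.0077). MT-CO3, a subunit of cytochrome c oxidase, stopped 12.9% and 14.4% with Terminator, 6.91% and 5.06% in CMC+, and 3.93% and 3.58% in CMC- at nucleotide 699 (1.23 ± 0.14, adjusted p = 0.0097). MT-CYB, of complex III, stopped 5.14% and 6.60% with Terminator, 1.90% and 2.41% in CMC+, and 1.51% in both CMC- libraries (1.43 ± 0.16, adjusted p = 0.024). At none of the 9 called mitochondrial U were both CMC+ libraries 2-fold above both CMC- libraries.

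Of the 86 tested U in the PUS7 context, UNUAA or UNUAG with the third base tested, 3 were called (3.49%, against 1.30% of all tested U), and the median log2 change was 0.38, against 0.26 for all U. Of the 5 in the TRUB1 context, GUUCNANNC, 0 were called, with a median of 0.03. Runs of U (UUUU across the tested base) gave 8 of 281 (2.85%), with a median of 0.23. These shares rest on few calls and their difference from that of all U was not tested. The PUS7 calls include an rRNA site printed above, and copies of rRNA genes repeat the sequence of a site. The 3 calls may thus hold fewer than 3 distinct sequences, a number not given here, so the PUS7 share may count gene copies of the same site. The U4 small nuclear RNA, whose base 79 is a known pseudouridine, had no called change with Terminator. Its stop percents were higher in CMC+ than in CMC-, an order that the listing rule sets for same-numbered libraries. RNU4-2 stopped 33.5% and 33.6% there with Terminator, 26.8% and 22.3% in CMC+, and 13.6% and 13.5% in CMC- (0.50 ± 0.09, adjusted p = 0.28). Its near-identical copy RNU4-1 stopped 32.3% and 35.9%, 25.0% and 28.9%, and 14.99% and 6.94% in the same order of groups (0.32 ± 0.21, adjusted p = 0.70). U with a low background took most of the calls, with 11 of 493 U called where CMC- stopped under 2%, 43 of 2739 between 2% and 5%, 18 of 1900 between 5% and 10%, 2 of 431 between 10% and 20%, and 0 of 119 above 20%.

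Coverage moved by kind of RNA. Nuclear rRNA took a larger part of the covering reads with Terminator, and mitochondrial RNA and mRNA a smaller one. At the common positions nuclear rRNA held 61.9% and 68.6% of covering reads with Terminator, 50.9% and 54.2% in CMC+, and 53.3% and 57.4% in CMC-. Mitochondrial RNA held 10.2% and 9.0%, 15.4% and 15.5%, and 14.6% and 14.2% in these groups, and mRNA 22.6% and 18.3%, 26.4% and 24.3%, and 25.3% and 22.8%. The 2 Terminator libraries lay on one side of the other 4 for each of the 3 kinds. A share cannot show which RNA gained and which lost.

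Relative to the library total, coverage was called higher at 1592 of 14470 positions (11.0%) and lower at 53 (0.366%). These calls were 362 U and 1230 other bases higher and 36 and 17 lower. With TMM scaling they were 28 and 87 higher and 448 and 266 lower, and with DESeq2 32 and 106 higher and 326 and 185 lower. The number of calls in each direction thus depended on the scaling. Without the replicate block 226 U and 620 other bases were called higher. The median log2 change was 0.43 over all tested positions, and TMM scaling, which assumes that most positions do not change, moved that median to -0.01. Class medians are therefore read against 0.43. They were 0.86 for 28S, 0.78 for the 45S precursor, 0.67 for 18S and 0.65 for 5.8S, all above it, and 1155 of the 1592 higher positions lay in nuclear rRNA (of 5313 tested there). The class of other small RNAs had 0.58 and small nuclear RNA 0.45. Below it were mRNA with 0.19, which turned to -0.24 with TMM, mitochondrial rRNA with -0.16, which turned to 0.16 when changes were centred by GC content, and mitochondrial mRNA with -0.28. Pseudogene positions had -0.14, which turned to 0.03 with GC centring.

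**Figure D2:**
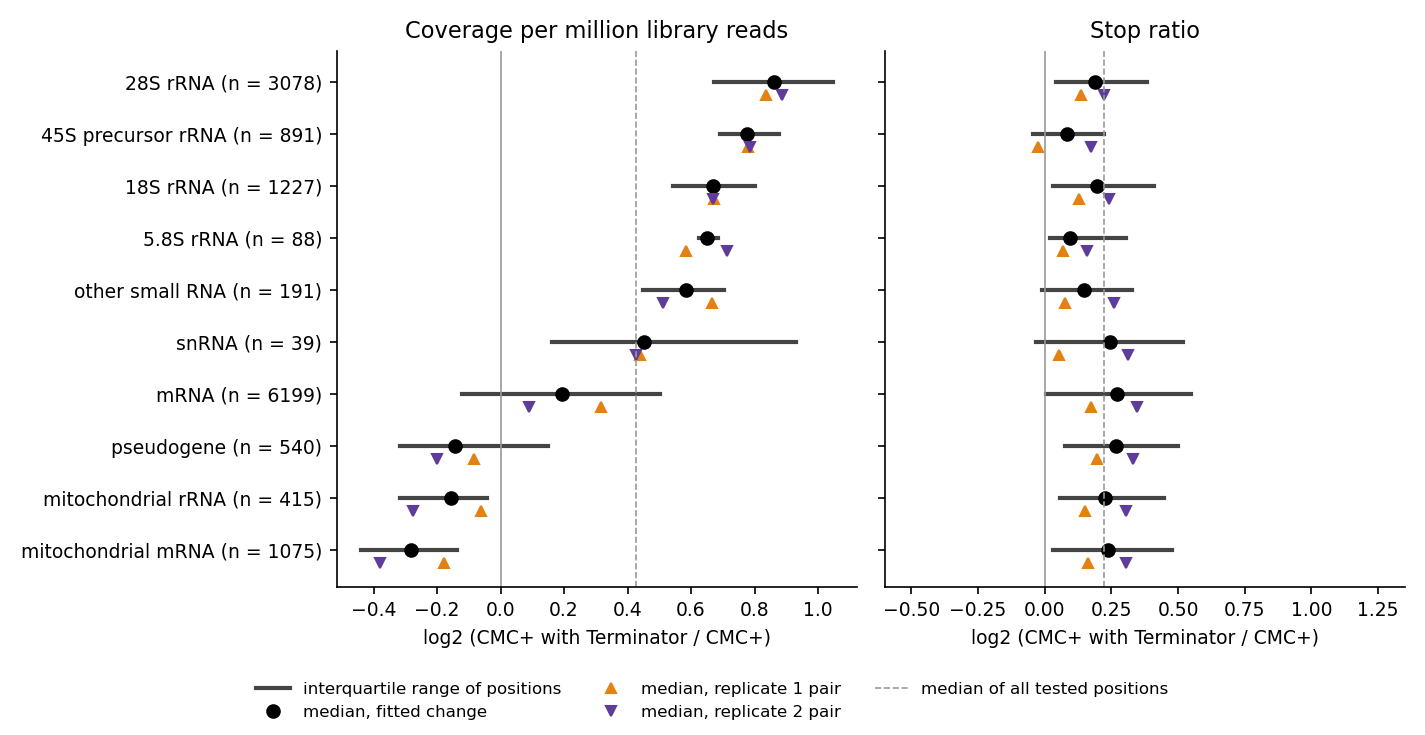
Median log2 change (CMC+ with Terminator over CMC+) of coverage in CPM (left) and of stop ratio (right) by RNA class, with the number of tested positions. Black dots are medians of fitted changes, bars the interquartile range of positions, triangles the medians of the 2 replicate pairs and the dashed line the median of all tested positions. Coverage medians of the classes shown run from 0.86 in 28S to -0.28 in mitochondrial mRNA, while stop ratio medians stay between 0.08 and 0.27.

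Single sites show the same order. 18S base 1539 had a coverage of 110 and 172 CPM with Terminator, 55.05 and 89.2 in CMC+, and 58.8 and 104.9 in CMC- (log2 change 0.98 ± 0.07, adjusted p = 1.4e-10), a rise just under the 2-fold minimum. 28S nucleotide 153 had a coverage of 154 and 240 CPM with Terminator, 73.4 and 100.4 in CMC+, and 78.4 and 120.0 in CMC- (1.17 ± 0.07, adjusted p = 2.1e-11). Its stop percent was 2.61 and 2.17 with Terminator, 2.27 and 2.07 in CMC+, and 1.98 and 1.97 in CMC-, a change of 0.13 ± 0.09 that was not called (adjusted p = 0.98). Coverage of the 5 rRNA sites printed above changed by 0.65 to 1.01, of which only 28S nucleotide 4428 passed the 2-fold minimum.

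Base composition went with the coverage change. Coverage called higher had a median GC content of 80.6% in the deposited sequence window (up to 31 bases), and coverage called lower 35.5%, against 58.1% over all tested positions. Across all tested positions the Spearman rho between GC content and log2 coverage change was 0.69, with 0.69 and 0.67 in the 2 replicate pairs. It was 0.78 over the 4587 mRNA positions beyond nucleotide 100, 0.64 over 3078 positions of 28S and 0.56 over 1527 mitochondrial positions. Nucleotide numbers of nuclear mRNAs here and below count along the genome from the nearest RefSeq gene start upstream, introns included. Bases near the start of the spliced mRNA but past an intron can thus fall beyond nucleotide 100. These are descriptions over positions that share libraries and, where close, reads. Between replicates of one group the same rho over all positions was -0.05 with Terminator and 0.12 in CMC+, but within 28S it was 0.39 and 0.69.

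**Figure D3:**
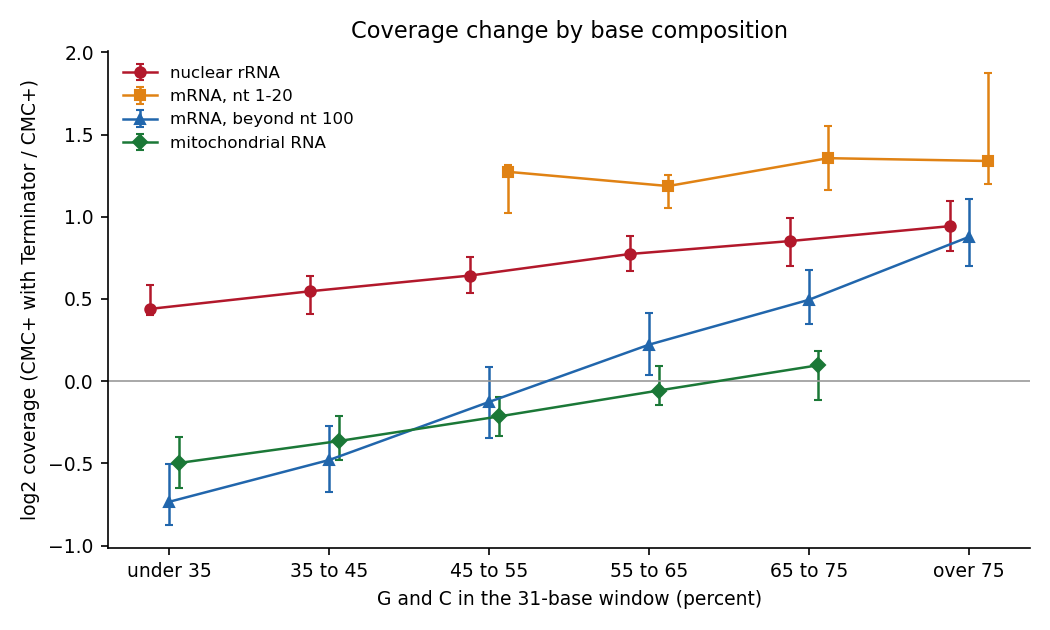
Median log2 coverage change (CMC+ with Terminator over CMC+) by GC content of the sequence window, in nuclear rRNA, mRNA within 20 nt of the gene start, mRNA beyond nucleotide 100 and mitochondrial RNA. Points are medians and bars interquartile ranges of positions. Distances from the gene start count along the genome, introns included. Beyond nucleotide 100 the mRNA medians run from -0.73 to 0.88 with GC content, while those at nucleotides 1 to 20 lie between 1.19 and 1.36.

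At mRNA positions over 100 nt along the genome from the gene start, the median log2 coverage change was -0.73 under 35% GC. It was -0.48 from 35% to 45%, -0.13 from 45% to 55%, 0.22 from 55% to 65%, 0.49 from 65% to 75% and 0.88 above 75%. In nuclear rRNA the medians over the same bins were 0.44, 0.55, 0.64, 0.77, 0.85 and 0.94. In every bin rRNA thus stood above mRNA beyond nucleotide 100. Mitochondrial RNA had -0.50, -0.36, -0.21, -0.06 and 0.10 in the first 5 bins. GC content and RNA class thus each went with the coverage change. What part either took in the called differences was not tested.

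The 5′ ends of mRNAs stood apart from both. At nucleotides 1 to 20 from the RefSeq gene start the median log2 coverage change was 1.23, with 76 of 91 positions called higher and 0 lower. It was 0.95 at nucleotides 21 to 50 (55 of 118 higher), 0.54 at 51 to 100 (37 of 157 higher, 3 lower) and 0.14 beyond (115 of 4587 higher, 19 lower), where TMM turned it to -0.29. With GC centring the first and last bins were 1.08 and 0.11. At nucleotides 1 to 20 the 4 GC bins from 45% up, which held 17, 30, 31 and 12 positions, had medians of 1.27, 1.19, 1.36 and 1.34. Stop percent ran the other way: its median log2 change was -0.19 at nucleotides 1 to 20, -0.05 at 21 to 50, 0.14 at 51 to 100 and 0.30 beyond, and 0 of the 209 positions within 50 nt were called, against 60 of 4587 beyond nucleotide 100.

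**Figure D4:**
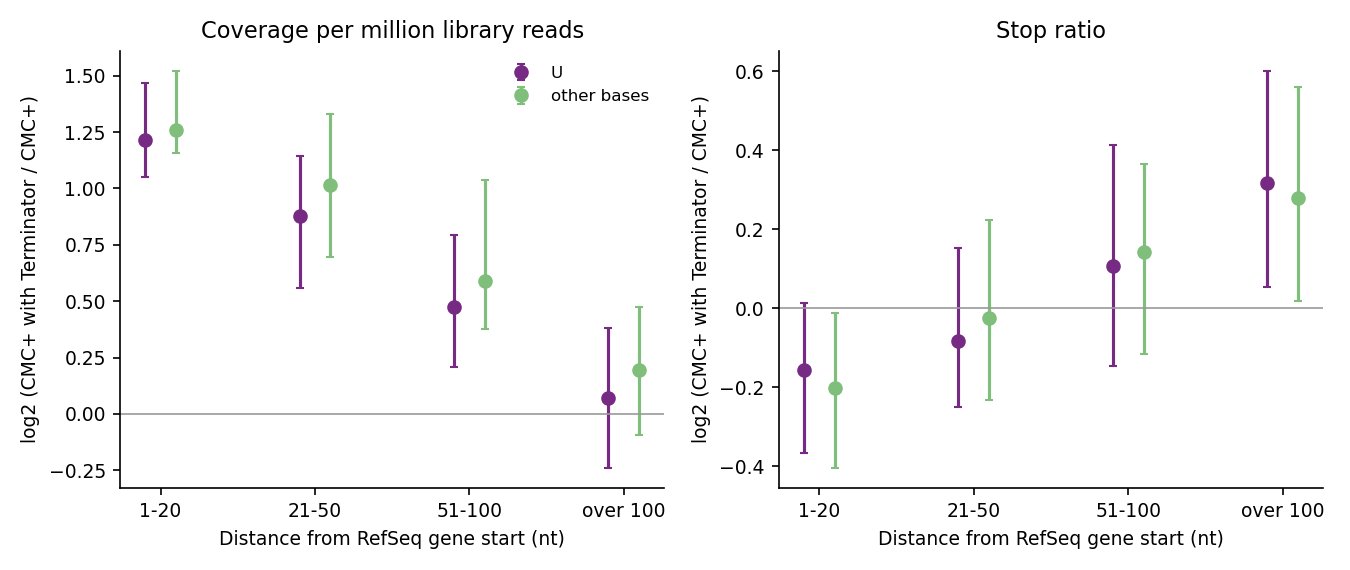
Median log2 change (CMC+ with Terminator over CMC+) of coverage (left) and of stop ratio (right) by distance from the RefSeq gene start in mRNAs, for U and for other bases. Distances count along the genome, introns included. Bars are interquartile ranges of positions. U and other bases move together: coverage falls from 1.21 and 1.26 at nucleotides 1 to 20 to 0.07 and 0.20 beyond nucleotide 100, and stop ratio climbs over the same bins.

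ENO1, a glycolytic enzyme, is an example. Its U at nucleotide 9 had a coverage of 31.2 and 42.6 CPM with Terminator, 17.2 and 17.9 in CMC+, and 16.1 and 18.7 in CMC- (1.06 ± 0.12, adjusted p = 1.7e-07). The stop percent there was 6.49 and 5.50 with Terminator, 7.81 and 5.43 in CMC+, and 6.19 and 4.77 in CMC-, so the stop percents overlapped while coverage did not. PPIB, a prolyl isomerase of the endoplasmic reticulum, had a coverage at nucleotide 41 of 11.4 and 13.3 CPM with Terminator, 4.41 and 4.95 in CMC+, and 4.48 and 6.44 in CMC- (1.40 ± 0.15, adjusted p = 8.7e-08). RNF187, a ubiquitin ligase, had 8.33 and 14.2 CPM at nucleotide 11 with Terminator, 2.30 and 3.27 in CMC+, and 4.29 and 3.64 in CMC- (2.01 ± 0.20, adjusted p = 2.7e-08). HNRNPAB, at nucleotide 29, and PFN1, at nucleotide 36, changed by 1.11 and 1.13. By mRNA region, 263 of 580 positions in 5′ UTRs were called higher (median 0.91), against 95 of 4830 in coding sequence (0.14, or -0.29 with TMM) and 16 of 588 in 3′ UTRs (0.15, or -0.29 with TMM).

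Summed over the common positions of a gene, coverage was called higher in 97 of 1324 genes (7.33%) and lower in 3 (0.227%). The 97 genes were those with few positions: 82 had a single common position, none had more than 3, and 0 of the 319 genes with at least 10 positions were called higher. Of the 60 with a RefSeq start upstream, 35 had a position within 50 nt of it (58.3%), against 192 of 751 tested genes (25.6%), and their median GC content was 71.0%, against 58.1% over all genes. A called gene is thus mostly 1 covered window, often at the 5′ end, and not a measure of the whole transcript.

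The largest changes were in GGCT, a gamma-glutamyl cyclotransferase, with 1.89 and 1.89 CPM, as a mean per common position, with Terminator, against 0.358 and 0.456 in CMC+ (2.23 ± 0.33, adjusted p = 5.0e-08). Only 5.33 and 8 covering reads lay behind the CMC+ values of GGCT, near the 5 stop reads that listing needed. PABPN1, the nuclear poly(A)-binding protein, had 5.93 and 5.05 at nucleotide 4 with Terminator, against 1.75 and 0.870 in CMC+ (2.10 ± 0.20, adjusted p = 1.8e-19). PCMT1, which repairs isoaspartyl residues, had 7.26 and 7.23 at nucleotide 2 with Terminator, against 1.82 and 2.04 in CMC+ (1.90 ± 0.17, adjusted p = 3.9e-22). The other named rises were UBE2A, H1F0, ACOT7, CCNB1, HTATSF1, PTOV1 and CSNK1D, at 1.89 to 2.15. Of these, UBE2A, H1F0 and CSNK1D had only 7 to 10 covering reads in each CMC+ library. In GGCT, PABPN1 and PCMT1 the groups did not overlap, but these genes were picked as large called rises. Each value comes from 1 position.

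The 3 falls were 2 C/D box small nucleolar RNAs and a subunit of ribonucleotide reductase. SNORD69 had 1.58 and 1.52 CPM with Terminator, against 3.51 and 3.88 in CMC+ (-1.24 ± 0.21, adjusted p = 7.8e-07). SNORD29 had 3.67 and 3.62 over 3 positions with Terminator, against 7.59 and 7.76 in CMC+ (-1.07 ± 0.12, adjusted p = 3.3e-16). RRM1 had 1.41 and 2.30 with Terminator, against 3.02 and 4.32 in CMC+ (-1.01 ± 0.20, adjusted p = 3.0e-05), and its adjusted p reached 0.064 when 1 library was left out. The windows of these small nucleolar RNAs are poor in G and C, at 35.5% and 35.4%.

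**Figure D5:**
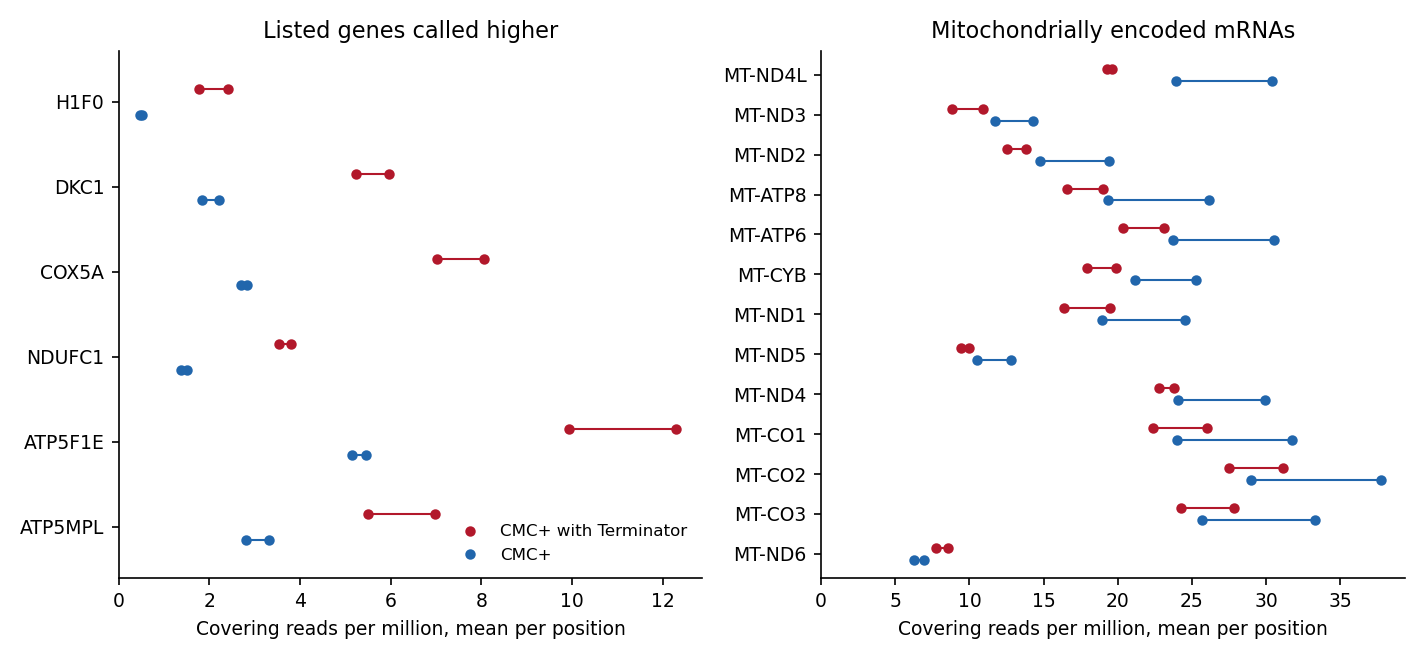
Coverage in CPM, as a mean per common position, in each Terminator and CMC+ library, for the genes of the lists that were called higher (left) and for the mitochondrially encoded mRNAs (right). Each dot is 1 library and lines join replicates. The genes at left do not overlap between groups, but they were chosen because they were called. At right, MT-ND6 lies higher with Terminator, MT-ND1, MT-CO1, MT-CO2 and MT-CO3 overlap, and the rest lie lower. How many of all genes separate in this way was not counted.

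Gene lists are read against all 1324 genes, of which 7.33% were called higher, 597 had higher and 108 lower coverage at an unadjusted p under 0.05, and the median was 0.23 (-0.01 with TMM). None of 48 large-subunit and none of 32 small-subunit ribosomal protein genes was called by edgeR or by DESeq2, with medians of 0.04 and 0.09 that turned to -0.21 and -0.15 with TMM. At an unadjusted p under 0.05, 13 and 8 of them had higher and 4 and 2 lower coverage. RPL11, whose U was among the largest changes in stop percent, had a gene coverage change of -0.01 ± 0.10. Translation factors (17 of 20 tested), glycolytic enzymes (10 of 15), cytosolic and mitochondrial chaperones (16 of 21), chaperones of the endoplasmic reticulum (8 of 10), the actin and tubulin group (12 of 15), splicing factors of the hnRNP and SR families (28) and the proteasome and ubiquitin group (15) also had 0 called by either tool, with medians of 0.03 to 0.29 that lay between -0.21 and 0.06 with TMM. At an unadjusted p under 0.05 they had 4, 4, 3, 3, 5, 14 and 5 genes higher and 2, 1, 1, 2, 0, 2 and 2 lower in that order. EEF2, the translocation factor with 396 common positions, had 25.9 and 27.6 CPM with Terminator, 19.6 and 24.3 in CMC+, and 21.1 and 27.5 in CMC- (0.29 ± 0.10, under the 2-fold minimum).

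Calls within the lists came from genes with 1 or 2 positions. Of 53 nuclear genes of oxidative phosphorylation, 4 rose: COX5A (1.46), NDUFC1 (1.33), ATP5F1E (1.06) and ATP5MPL (1.03). That is 7.55% of the list, near the 7.33% of all genes. COX5A, a subunit of cytochrome c oxidase, had 7.03 and 8.06 CPM with Terminator, 2.82 and 2.70 in CMC+, and 3.77 in both CMC- libraries. Of 8 dyskerin complex and nucleolar genes 1 rose: DKC1, which encodes dyskerin, had 5.24 and 5.95 with Terminator, 2.21 and 1.83 in CMC+, and 1.84 and 2.23 in CMC- at its 1 position, 49 nt from the gene start (1.48 ± 0.18, adjusted p = 1.2e-12). The other 7 genes of that list were not called. NHP2, of the dyskerin complex, and SNU13, of the box C/D complex, had changes of 0.79 and 0.82 over 7 and 2 positions, NOP56 and NOP58 0.23 and -0.23 over 3 positions each, and NCL, FBL and NPM1 -0.02, 0.05 and 0.04 over 66, 26 and 23 positions. With TMM, NOP56, FBL and NPM1 turned to -0.01, -0.20 and -0.21. Of 10 histone genes 1 rose, the linker histone H1F0 (2.07 ± 0.30).

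The 13 mitochondrially encoded mRNAs had a median of -0.27, and 12 of the 13 were below 0. None was called by edgeR or DESeq2, since no change reached 2-fold, but 9 had lower and 1 had higher coverage at an unadjusted p under 0.05, where 108 of all 1324 genes had lower and 597 higher. MT-ND4L was the lowest, with 19.3 and 19.6 CPM with Terminator, 23.9 and 30.4 in CMC+, and 24.4 and 32.1 in CMC- (-0.47 ± 0.10, adjusted p = 4.3e-05). MT-ND6, the one mRNA of the other strand, had 8.52 and 7.71 with Terminator, 6.28 and 6.93 in CMC+, and 7.0 and 7.90 in CMC- (0.30 ± 0.10, adjusted p = 0.011). How reads were assigned to a strand is not stated in the sources used here. With GC centring all 13 changes were above 0, with a median of 0.12, so the sign depends on the scaling. Of all 1324 genes, 1080 were also above 0 with GC centring, with a median of 0.20. The mitochondrial median lay below that of all genes there, as it did without centring (-0.27 against 0.23) and with TMM (-0.52 against -0.01).

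Stop reads relative to the library total combine the other 2 measures. They were called higher at 3422 of 14470 positions (23.6%) and lower at 16 (0.111%), with a median log2 change of 0.68 over all tested positions. By base these were 1026 U and 2396 others higher and 8 and 8 lower, against 41 and 75 higher and 290 and 250 lower with TMM, and 36 and 49 higher and 13 and 15 lower with DESeq2. Of the 3422, coverage was called higher at 1248 (36.5%), stop percent at 91 (2.66%), both at 4 and neither at 2087. The stop-read rises held 78.4% of the coverage calls and 69.5% of the stop percent calls, and at 275 of them the stop percent changed downward. Across positions the log2 change of stop reads had a Pearson r of 0.80 with that of coverage and 0.34 with that of stop percent, and these values share the same reads by construction. A called rise in stop reads was thus more often joined by a called rise in coverage than by one in stop percent. Stop percent rests on fewer reads than coverage, so the 2 counts of calls are not alike. At 2398 of the 3422 both Terminator stop percents lay above both CMC+ values, so an uncalled stop percent does not show an unchanged one.

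Stop reads called lower were few, and the named U among them also had negative coverage changes. HSP90AB1, a cytosolic chaperone, had 6 and 6 stop reads with Terminator, 16 and 15.5 in CMC+, and 12.5 and 9 in CMC- at chromosome 6 position 44251154 (log2 change -1.39 ± 0.20, adjusted p = 0.0094). Coverage there was 3.98 and 4.98 CPM with Terminator, 7.90 and 9.58 in CMC+, and 7.44 and 9.96 in CMC-, and the stop percent changed by -0.44 ± 0.18 without being called. MT-CO1, a subunit of cytochrome c oxidase, had 8.5 and 11.5 stop reads at nucleotide 1407 with Terminator, 17.8 and 30.3 in CMC+, and 24.2 and 17.8 in CMC- (-1.23 ± 0.21, adjusted p = 0.0038), in a window of 16.1% GC. TXN, or thioredoxin, with 19.4% GC, and HNRNPA2B1, a splicing regulator, with 32.3% GC, had coverage changes of -1.01 and -0.69 at their called sites. In these 4 and in SRRM2 the log2 change of stop percent was -0.24 to -0.63, while at PABPC1, which encodes a cytoplasmic poly(A)-binding protein and whose coverage changed by -1.54, it was 0.38. None of these 6 was called for stop percent, and with GC centring no U had called lower stop reads, against 8 without it.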

How the data were processed

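Reverse-transcription stops were measured in 6 HEK293T libraries of 16 in the series. Per the submitters' processing notes, the tools were cutadapt 2.8 and STAR and the build was hg38. The deposited tables give stop and covering reads in expected counts (with fractions), their ratio as a fraction, and stop reads as RPM. Library totals were recovered as stop reads over RPM. Judged by the values, listing needed 5 or more stop reads with CMC, 1 or more without it, and a stop ratio no lower with CMC than without. How reads that match several places were shared is not stated in the sources used here.

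Expected counts were rounded and fitted with edgeR 4.0.16 in R 4.3.3 (quasi-likelihood, Benjamini-Hochberg over all positions or genes tested), for stop reads and coverage against the library total and for the stop ratio with covering reads as offset. The replicate number was a block, because the series design text counts a CMC- and a CMC+ sample as 1 replicate and the same CMC- library serves both tables of a number. As a check, deviations from group means of same-numbered libraries correlated at 0.458 to 0.594 for coverage, 0.219 to 0.399 for stop RPM and 0.064 to 0.346 for the stop ratio, so for the ratio between Terminator and CMC+ (0.064) the pairing rests on that text. The fit was tested on simulated data. SE is the log2 change over the root of F. GENCODE 29 gave regions for 10501 of 10854 mRNA positions, and RefSeq gene starts gave distances for 8654. Distances were taken along the genome from the nearest start upstream, introns included. Mature 18S numbers are the transcript position less 1. 159 positions whose gene symbol differed between tables took 1 of the symbols.

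The members, lists and tests were chosen with earlier results of these data known. Named sites are the called positions with the largest changes (15 U and 5 other bases for the stop ratio, 10 rises and 10 falls for stop reads of U and for genes), 1 per gene and sequence, the most covered U of each class and list, and 2 called U per class. EEF2, MT-ND4L and MT-ND6 were picked from the lists after their values were seen. Alternatives were DESeq2 1.42.0, TMM, other filters and offsets, no block, 1 position per sequence, each library left out and, chosen after seeing the data, centring by GC content. Levels of XIST, and 1 other named site, are not reported here.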

Additional observations from a re-analysis of the deposited data

How the results depend on the processing

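No called value of a single site or gene changed sign under the alternatives run, but counts of calls moved with the scaling, the tool and the filter. The cause of each move was not tested. For stop reads, 1026 U called higher became 554 with 1 position per sequence, 36 with DESeq2, 41 with TMM, 389 with at least 20 stop reads in each of 4 libraries and 1630 with no fold minimum, and 527 to 1026 when 1 library was left out. The 8 U called lower became 13 with DESeq2, 0 with GC centring, 290 with TMM, 0 with the stricter filter and 13 with no fold minimum (1 to 7 leaving out 1 library). Of other bases, 2396 called higher became 1256, 49, 1342 with GC centring, 75 with TMM and 575 with the stricter filter (945 to 2395), and 8 called lower became 5, 15, 2, 250 and 0 in that order, 5 with no filter and 16 with no fold minimum (0 to 9).

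For the stop ratio, 74 U called higher became 14 with DESeq2, 20 with the stricter filter, 10 centred on the median change, 157 with readthrough reads as offset and 245 with no fold minimum (0 to 87), and 57 other bases became 4, 11, 9, 123 and 142 (0 to 65). For coverage, 362 U called higher became 32 with DESeq2, 28 with TMM, 89 with the stricter filter and 2547 with no fold minimum (289 to 412), and 36 called lower became 326, 448, 0 and 1142, 2 with GC centring and 86 with no filter (37 to 78). Of other bases, 1230 called higher became 106, 87, 315 and 5578, 684 with 1 position per sequence and 393 with GC centring (958 to 1448), and 17 called lower became 185, 266, 0 and 947, 2 with GC centring and 43 with no filter (13 to 37). For genes, 97 called higher became 33 with DESeq2, 44 with GC centring, 54 with TMM and 553 with no fold minimum (92 to 112), and 3 called lower became 0 with GC centring, 8 with TMM and 84 with no fold minimum (1 to 5).

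Without the replicate block, coverage was called higher at 226 U and 620 other bases. The pairing changed no other count of calls by over 1.5 times, with 982 U higher for stop reads, 90 for the stop ratio and 96 genes. Of values for single sites and genes, 343 stayed on their side of the threshold and 81 did not under the other alternatives, and 638 and 114 when 1 library was left out. The median of 11 and 14.6 stop reads per tested position in CMC+ limits the precision of each stop percent.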
